A study of Mus musculus with 6 samples.

Results

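The miR-181 family comprises 7 rows among the 1011 miRNAs counted in mouse pancreatic islets, taken by name: the guide strands miR-181a-5p, miR-181b-5p, miR-181c-5p and miR-181d-5p and the passenger strands miR-181a-1-3p, miR-181a-2-3p and miR-181c-3p. The small RNA came from primary islets, the hormone-secreting cell clusters of the pancreas, of mice labelled HFD-fed or NCD-fed, with 3 libraries per diet. Strain, age, sex and time on the diet are not given in the labels, nor whether a library is 1 animal or a pool, so the p-values cover only the spread among these 6 samples. The series concerns a vesicle-borne fat-cell miRNA and insulin secretion, and the comparison asked here is which members of the family, and which of their loci, differ between HFD and NCD islets.

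A miRNA hairpin yields a duplex, of which the guide strand is mostly loaded into Argonaute to repress mRNAs that pair with its seed, while the passenger strand is mostly degraded. The miR-181 guides share 1 seed and come from 3 paired loci. They are best known for tuning antigen receptor sensitivity in T cells, for restraining NF-kB signalling in endothelium and for acting on mitochondrial transcripts. Identical guides from different loci cannot be told apart by their reads, whereas the passenger strands name their locus as far as their reads are counted apart.

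The mature sequences are shown because the seed defines the family and the bases outside it separate the rows. Each is printed 5′ to 3′ with the seed, bases 2 to 8, in capitals. All 7 sequences of the deposited table equal the RefSeq entries (GRCm38.p6).
mmu-miR-181a-5p: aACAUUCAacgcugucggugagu
mmu-miR-181b-5p: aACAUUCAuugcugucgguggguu
mmu-miR-181c-5p: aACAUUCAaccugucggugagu
mmu-miR-181d-5p: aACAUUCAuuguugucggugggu
mmu-miR-181a-1-3p: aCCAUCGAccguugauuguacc
mmu-miR-181a-2-3p: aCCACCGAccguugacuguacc
mmu-miR-181c-3p: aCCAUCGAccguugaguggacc
The 4 guides carry the seed ACAUUCA, which no other row of the table has. The passengers miR-181a-1-3p and miR-181c-3p share the seed CCAUCGA, and miR-181a-2-3p alone has CCACCGA. Positions are counted from 1 at the 5′ end. From miR-181a-1-3p, miR-181a-2-3p differs at U5C and U16C, and miR-181c-3p at U16G and U19G. miR-181d-5p differs from miR-181b-5p at C12U and ends 1 base earlier, and removing base 11 of miR-181a-5p gives miR-181c-5p. The sources used here do not say how reads that fit several of these rows were counted, so such rows may exchange reads. No row of the table was reverse complementary to a member over 18 bases.

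The loci lie on chromosomes 1, 2 and 8 (GRCm38). Mir181a-1 and Mir181b-1 stand on the plus strand of chromosome 1, at chr1:137966455-137966541 and chr1:137966639-137966718. Both are inside introns of the noncoding genes Gm4258 (same strand) and Gm26936 (antisense), and both overlap the exon of the lincRNA A430106G13Rik. Mir181a-2 (chr2:38852735-38852810) and Mir181b-2 (chr2:38853830-38853918) are on the plus strand of chromosome 2, within an intron of the nuclear receptor gene Nr6a1 and antisense to it, and Mir181b-2 also overlaps the exon of the unclassified gene Gm44144. Mir181d (chr8:84178716-84178787) and Mir181c (chr8:84178873-84178961) are on the minus strand of chromosome 8, within an intron of Nanos3. On the same chromosome the hairpin of miR-27a, the miRNA in the series' title, is separated from Mir181c by 29710 bases and lies on the other strand. The RefSeq hairpins of both miR-181a loci are given to show that they encode an identical guide and different passengers, with both mature strands in capitals.
Mir181a-1: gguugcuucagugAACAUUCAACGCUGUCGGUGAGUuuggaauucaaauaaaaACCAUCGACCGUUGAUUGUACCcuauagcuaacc
Mir181a-2: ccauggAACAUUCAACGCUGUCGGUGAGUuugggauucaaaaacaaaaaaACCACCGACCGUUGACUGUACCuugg

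Libraries held 7166712 to 11172255 counts, and the family took between 0.00703% and 0.00999% of them in 5 libraries and 0.0203% in NCD replicate 3. That library stood apart from the rest: its TMM factor, the scaling edgeR derives from the bulk of miRNAs, was 1.73, against 0.84 to 0.995 in the others. Levels below are CPM, the counts scaled to a common total, on TMM-scaled totals unless called deposited TPM, which is CPM on raw totals. In deposited TPM all 7 members were highest in NCD 3, and on the TMM scale 3 of 7 were. The islet miRNA miR-375-3p was the most abundant row by its mean over the 6 libraries, at 170905 to 465924 CPM. In these bulk samples, fewer cells of a type and less RNA per cell cannot be told apart.

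Of the 7 members, 5 passed the filter on low counts and none differed between diets at an adjusted p of 0.05 by the quasi-likelihood test of edgeR with Benjamini-Hochberg adjustment. The background was 1 call among 406 tested miRNAs, or 0.246%, and at an unadjusted p under 0.05 there were 34 miRNAs, or 8.37%, none of them a member. DESeq2 also called 0 members, against 0.743% of the miRNAs it adjusted, and gave miR-181a-2-3p an unadjusted p of 0.0235. Among the 406 miRNAs, 49 had an unadjusted DESeq2 p under 0.05. The largest difference was that of miR-181a-2-3p, the passenger strand of the chromosome 2 locus, with an edgeR estimate 2.20-fold lower in HFD islets. The diets overlapped for each of the 7 members in CPM, while they did not for 15.3% of the tested miRNAs.

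Among the guides, miR-181a-5p was the most abundant and took 46.6% to 54.2% of the family's reads in every library. Its levels were 39.8, 61.6 and 33.5 CPM in HFD 1, 2 and 3, and 57.6, 49.7 and 62.9 CPM in NCD 1, 2 and 3. HFD 1 and HFD 3 lay below all NCD libraries, and HFD 2 lay among them. HFD islets averaged 44.9 ± 14.8 CPM and NCD islets 56.7 ± 6.61 CPM (SD, n = 3 each). The log2 fold change was -0.34 ± 0.35 (SE), with a 95% interval of -1.08 to 0.41 and an edgeR adjusted p of 0.711. It was -0.67 without HFD 2 and -0.21 without HFD 3. In deposited TPM the values were 33.4, 51.7 and 33.3 in HFD and 54.1, 43.4 and 108.8 in NCD islets, and with library totals as the only scaling the edgeR log2 fold change was -0.80 (adjusted p = 0.57). That scaling shifted the median of all tested miRNAs from 0.03 to -0.37.

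miR-181b-5p, the second guide of the chromosome 1 and 2 loci, had a fold change nearer to 0 than its partner. It had 18.4, 24.0 and 12.4 CPM in the HFD libraries and 18.7, 20.1 and 17.9 CPM in the NCD libraries. HFD 2 was the highest and HFD 3 the lowest of all 6 libraries, with the NCD libraries close together between them. The log2 fold change was -0.05 ± 0.37 (SE), with a 95% interval of -0.86 to 0.76 and an edgeR adjusted p of 0.952, and it turned to 0.12 without HFD 3.

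miR-181d-5p, from the chromosome 8 locus, was the 1 tested member with a higher mean in HFD islets. It had 18.3, 13.9 and 17.8 CPM in the HFD libraries and 12.3, 15.3 and 11.8 CPM in the NCD libraries. HFD 1 and HFD 3 were above every NCD library, and HFD 2 was not. The log2 fold change was 0.34 ± 0.36 (SE), with a 95% interval of -0.45 to 1.13 and an edgeR adjusted p of 0.723. With library totals only it was -0.019, so its direction depends on the scaling. HFD 1 and HFD 3, the libraries with most miR-181d-5p among the HFD samples, were those with least miR-181a-5p.

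miR-181c-5p, the other guide of chromosome 8, was near the limit of detection and did not pass the filter. It had 8, 3 and 11 reads in HFD and 1, 9 and 9 reads in NCD islets, where 3 reads are the limit that a count of 0 allows. The exact Poisson 95% interval of the single read in NCD 1 ran from 0.0253 to 5.57 reads. In a fit without the filter its log2 fold change was 0.33 ± 1.10 (SE, edgeR adjusted p = 0.94), with 0.593% of 1011 miRNAs called. A difference between diets was not detectable at this depth.

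**Figure D1:**
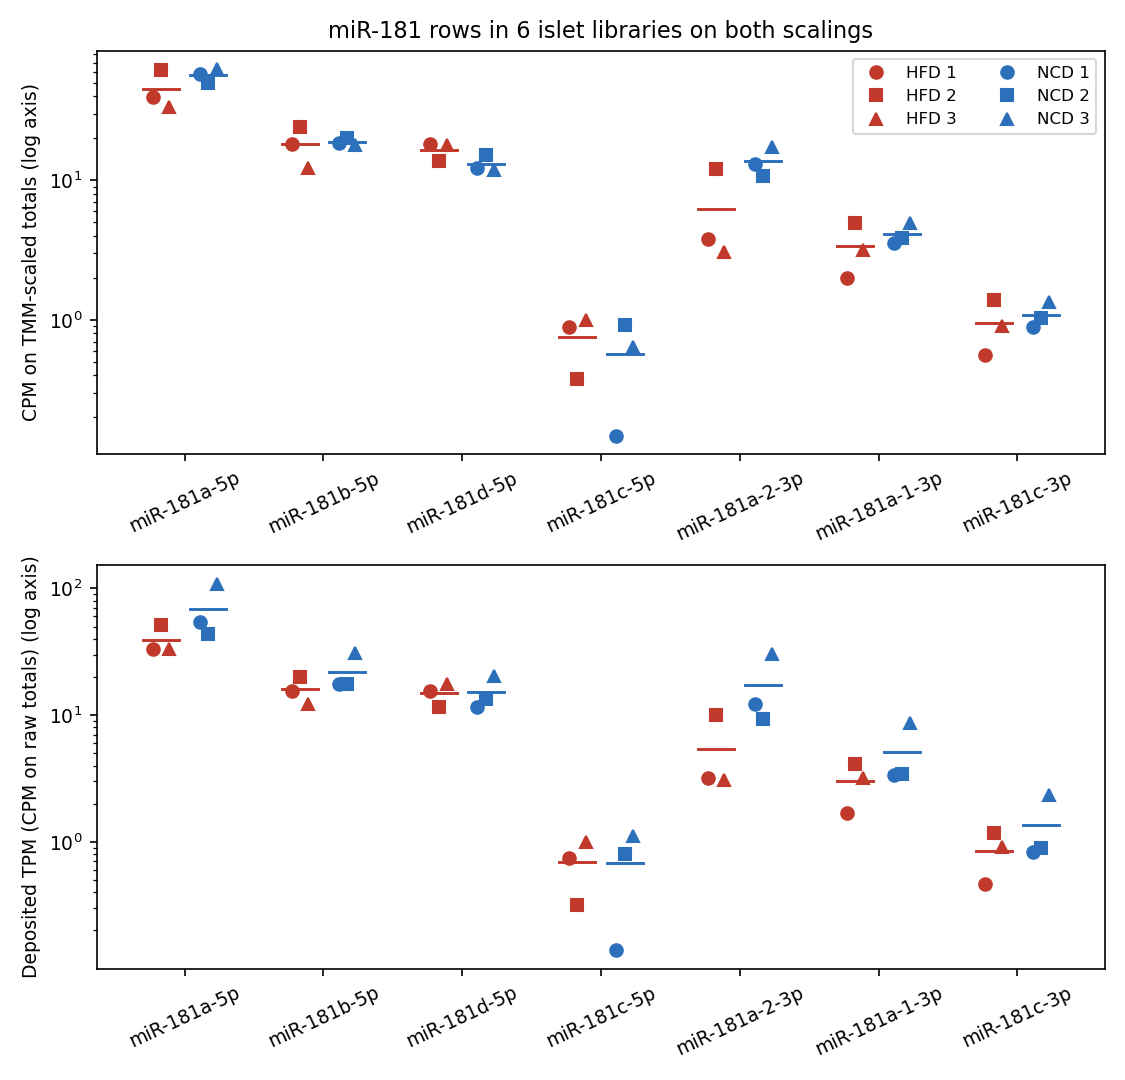
Level of each miR-181 row in each library on a log axis, as CPM on TMM-scaled totals (upper panel) and as deposited TPM (lower panel). Points are libraries, colours are diets, marker shapes are replicate numbers and bars are diet means. NCD 3 is highest for all 7 members in the lower panel and for 3 in the upper, and miR-181a-2-3p has 2 HFD libraries far below the rest.

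The most abundant passenger strand was miR-181a-2-3p, which exceeded the guide miR-181d-5p in NCD 1 (88 against 83 reads) and NCD 3 (246 against 166). It had 3.79, 11.99 and 3.09 CPM in the HFD libraries and 13.1, 10.8 and 17.5 CPM in the NCD libraries. HFD 1 and HFD 3 lay well below every NCD library, while HFD 2 was above NCD 2. HFD islets averaged 6.29 ± 4.95 CPM and NCD islets 13.8 ± 3.42 CPM (SD, n = 3 each). The log2 fold change was -1.14 ± 0.53 (SE), with a 95% interval of -2.29 to 0.01. Its unadjusted p was 0.0522 and its adjusted p 0.58 in the edgeR test, so it did not pass, and 35 tested miRNAs had a smaller p. Without HFD 2 the log2 fold change was -2.05 (adjusted p = 0.376), and without HFD 3 it was -0.86 (adjusted p = 0.739). Over all 18 alternatives, the 0.1 threshold on the adjusted p among them, it stayed negative, and its adjusted p ran from 0.376 to 0.957. Its unadjusted p lay on both sides of 0.05, from 0.00195 without HFD 2 to 0.165 without HFD 1 (edgeR).

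miR-181a-1-3p, the passenger strand of the chromosome 1 locus, had 2.005, 4.92 and 3.18 CPM in the HFD libraries and 3.56, 3.89 and 4.98 CPM in the NCD libraries. HFD 1 was lowest, and HFD 2 and NCD 3 were highest and nearly equal. The log2 fold change was -0.31 ± 0.52 (SE), with a 95% interval of -1.44 to 0.83 and an edgeR adjusted p of 0.858. It was -0.07 without HFD 1 and -0.73 without HFD 2. miR-181c-3p, from chromosome 8, did not pass the filter, with 5, 11 and 10 reads in HFD and 6, 10 and 19 reads in NCD islets. Without the filter its log2 fold change was -0.28 ± 0.93 (SE, edgeR adjusted p = 0.94). The table also lists miR-181b-1-3p, a passenger of the chromosome 1 locus outside the rule, with 8, 6 and 4 reads in HFD and 0, 2 and 7 in NCD islets, where the 0 allows up to 0.445 CPM.

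**Figure D2:**
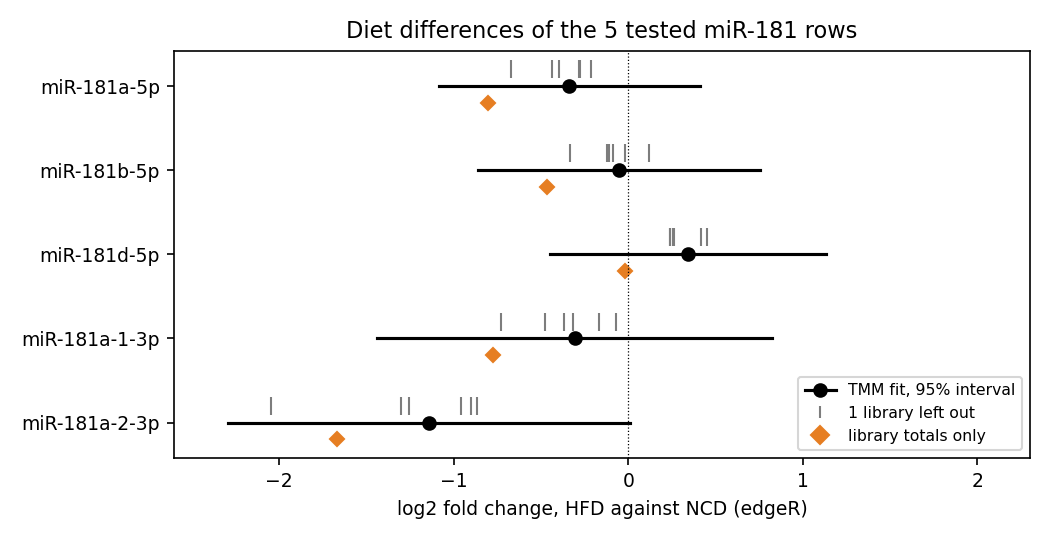
Log2 fold change of the 5 tested members, HFD against NCD. Black points and lines give the edgeR estimate and its 95% interval with TMM scaling, grey ticks the estimates with 1 library left out, and orange diamonds the estimate with library totals only. All 5 intervals include 0, and the diamonds lie to the left of the black points.

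The order of the rows by reads held in part between libraries. miR-181a-5p exceeded miR-181b-5p in 6 of 6 libraries, by 2.16 to 3.51 times. miR-181b-5p exceeded miR-181d-5p in 5 of 6, the exception being HFD 3, with ratios from 0.694 to 1.73. The levels of these neighbours were not tested against each other. miR-181d-5p exceeded miR-181a-2-3p in 4 of 6, with ratios from 0.675 in NCD 3 to 5.76 in HFD 3. miR-181a-1-3p exceeded miR-181c-3p in 6 of 6, and miR-181c-3p exceeded miR-181c-5p in 4 of 6. For that hairpin the strand called passenger here thus had more reads over all libraries (61) than the strand called guide (41). Ligation favours some miRNA ends over others, so levels of different rows are less comparable than 1 row between libraries.

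Ratios between rows of the same library do not depend on its scaling, and they allow the loci to be compared where rows are counted apart. The first ratio sets the chromosome 2 passenger against that of chromosome 1. There were 1.89, 2.44 and 0.971 reads of miR-181a-2-3p per read of miR-181a-1-3p in HFD 1, 2 and 3, and 3.67, 2.76 and 3.51 in NCD 1, 2 and 3. Every HFD library lay below every NCD library, with HFD 2 and NCD 2 nearest to each other. The levels of 15.3% of the tested miRNAs separated the diets likewise, in either direction, and how often ratios of other miRNAs do so was not counted. The log2 ratio averaged 0.71 ± 0.68 over HFD and 1.70 ± 0.22 over NCD libraries (SD, n = 3 each), a difference of -0.99. The two-sided exact permutation test gave p = 0.1, the smallest that 3 against 3 allows, and an adjusted p of 0.225 over the 9 ratios compared. The threshold of 0.05 could therefore not be reached. As a share of both passengers, miR-181a-2-3p made up 65.4%, 70.9% and 49.3% in HFD and 78.6%, 73.4% and 77.8% in NCD islets. The exact binomial 95% interval of HFD 3, 37.0% to 61.6%, lay below those of all 3 NCD libraries, whose lowest bound was 65.4%. The intervals of HFD 1 (50.9% to 78.0%) and HFD 2 (62.4% to 78.4%) overlapped them, and intervals cover counting error only. Without HFD 3 the difference of log2 ratios was -0.62, and without any other single library it was between -1.28 and -0.92.

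In the guide-to-passenger ratio of miR-181a the diets did not overlap either, again without a count of how often other ratios separate them. The log2 ratio of miR-181a-5p to the sum of its passengers was 2.77, 1.86 and 2.41 in HFD and 1.79, 1.76 and 1.48 in NCD islets. All HFD values were above all NCD values, HFD 2 only slightly. The difference was 0.67 (two-sided exact permutation p = 0.1, adjusted p = 0.225), and it ran from 0.46 without HFD 1 to 0.91 without HFD 2. This ratio shares the reads of miR-181a-2-3p with the preceding one and is no separate support for it.

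The 2 passengers with the same seed kept an almost fixed ratio. miR-181c-3p made up 21.7%, 22.0% and 22.2% of its sum with miR-181a-1-3p in HFD and 20.0%, 20.8% and 21.3% in NCD islets. The SD over the 6 libraries was 0.828 percentage points, smaller than the 6.51 points that counting error alone gives at these depths of 23 to 89 reads per library. The exact binomial intervals ran from 7.46% to 43.7%. The diets did not overlap, and the difference of log2 ratios was 0.12 (two-sided exact permutation p = 0.1, adjusted p = 0.225). All 6 shares, from 20.0% to 22.2%, nevertheless lay inside the interval of every library, the narrowest being 13.4% to 31.3% in NCD 3. miR-181c-5p, the guide of the miR-181c-3p hairpin, held 1 to 11 reads per library, and its log2 ratio to miR-181c-3p ran from -1.72 to 0.63 in HFD and from -2.12 to -0.14 in NCD islets. Whether the rows exchange reads was not tested.

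**Figure D3:**
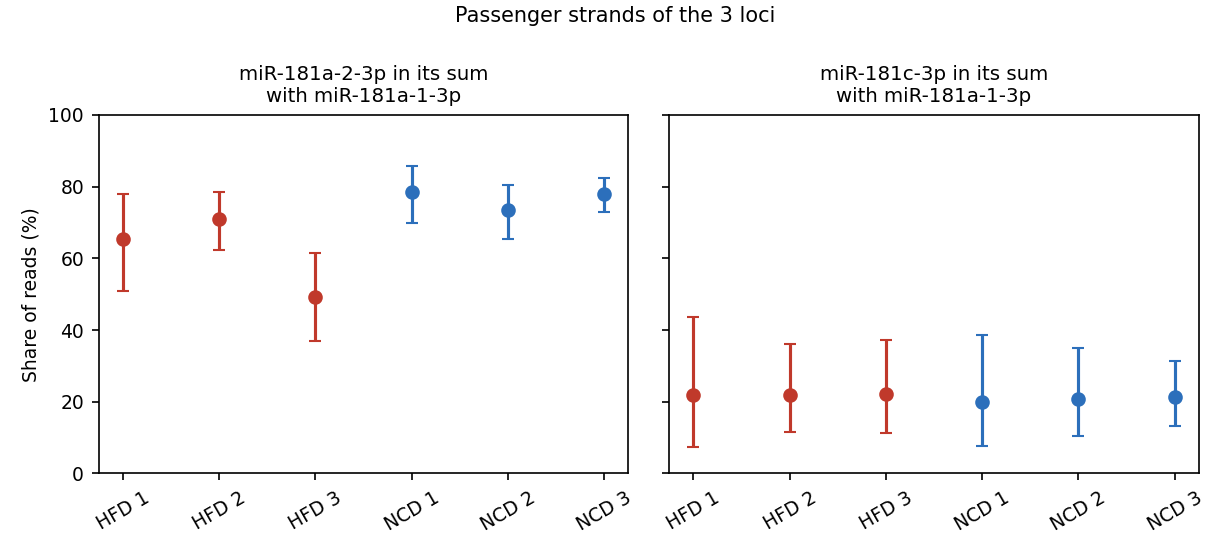
Share of reads of 1 passenger strand in its sum with miR-181a-1-3p, per library, with exact binomial 95% intervals, for miR-181a-2-3p (left) and miR-181c-3p (right). On the left the HFD points, from 49.3% to 70.9%, lie below the NCD points, from 73.4% to 78.6%. On the right all 6 points lie between 20.0% and 22.2%.

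Of the remaining ratios, that of miR-181c-3p to miR-181a-2-3p was higher in each HFD library than in any NCD library, with a difference of 1.11 on the log2 scale (exact permutation p = 0.1, adjusted p = 0.225). It rests on the same miR-181a-2-3p reads. Whether miR-181c-3p was counted apart from miR-181a-1-3p, to which its ratio was almost fixed, was not tested, so this ratio may not report chromosome 8 alone. The guides' ratios overlapped between diets. The log2 ratio of miR-181d-5p to miR-181b-5p, which sets chromosome 8 against the other loci, was -0.01, -0.79 and 0.53 in HFD and -0.60, -0.39 and -0.60 in NCD islets. HFD 3 and HFD 1 were high and HFD 2 lowest. The difference of 0.44 had an exact permutation p of 0.4 (adjusted p = 0.45). For miR-181b-5p to miR-181a-5p it was 0.28 (p = 0.3, adjusted p = 0.45, exact permutation test). For miR-181c-5p to miR-181a-5p it was 0.90, for miR-181c-5p to miR-181c-3p 0.78 and for miR-181d-5p to miR-181c-5p -0.19, with exact permutation p of 0.4, 0.4 and 0.9. With 1 library left out, the difference ran from 0.13 to 0.79 for miR-181d-5p to miR-181b-5p, from 0.27 to 1.55 for miR-181c-5p to miR-181a-5p and from 0.27 to 1.48 for miR-181c-5p to miR-181c-3p.

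**Figure D4:**
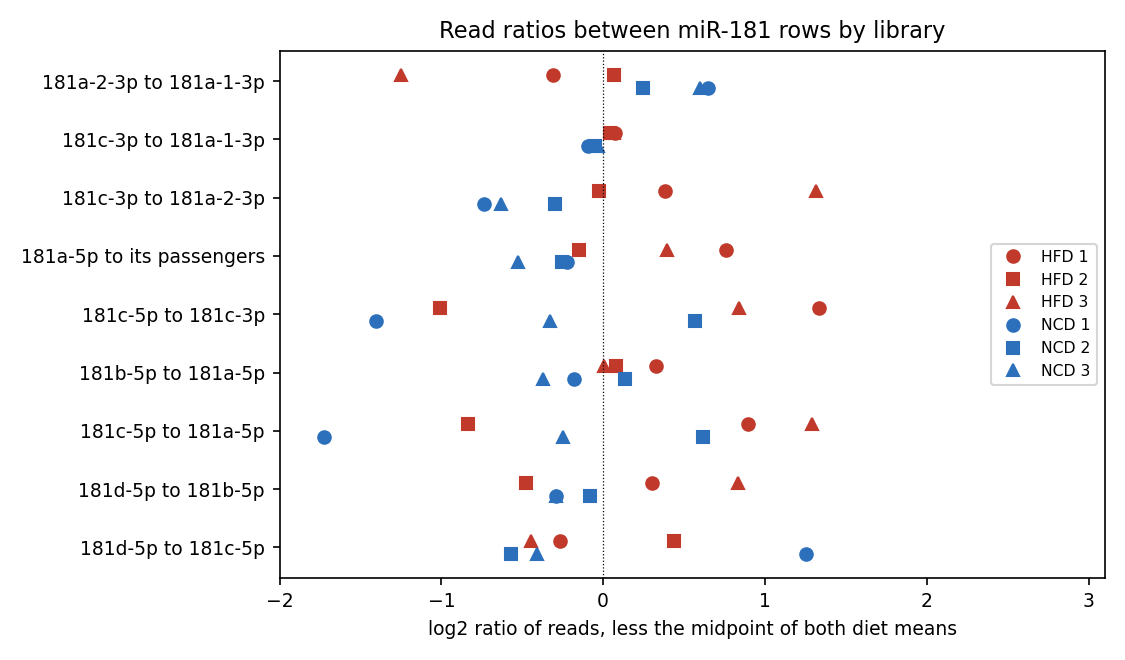
Log2 ratio of reads between miR-181 rows in each library, less the midpoint of both diet means so that 0 lies between the diets. Colours are diets and marker shapes are replicate numbers. The diets do not overlap in the upper 4 ratios, 3 of which share the miR-181a-2-3p reads, and they overlap in the others. Each of these 4 has an exact permutation p of 0.1 (adjusted p = 0.225). How often ratios of other miRNAs separate the diets was not counted.

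The members also differed in how they varied over the libraries. The root mean square difference from miR-181a-5p, in log2(CPM + 0.5) centred on each row's own mean over the 6 libraries, was 0.22 for miR-181b-5p and 0.26 for miR-181a-1-3p. It was 0.56 for miR-181d-5p and 0.56 for miR-181a-2-3p, near the median of 0.57 over the 235 other miRNAs with at least 10 CPM. This measure takes in the size of a swing as well as its direction, so equal values can stand for unlike patterns. HFD 1 and HFD 3 were the lowest libraries for miR-181a-5p and also for miR-181a-2-3p, whose swing was larger. For miR-181d-5p they were the highest. The 5 outside the family nearest to miR-181a-5p were miR-222-3p (0.17), miR-378a-3p (0.18), miR-125b-5p (0.18), miR-106b-3p (0.19) and miR-1981-5p (0.19). The nearest, miR-222-3p, had 27.2, 40.6 and 28.1 CPM in the HFD libraries and 54.1, 39.3 and 46.9 CPM in the NCD libraries, so that HFD 2 again stood above the other HFD libraries. None of these 5 passed the edgeR test (adjusted p = 0.58 or more).

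Markers of other cells varied over the same libraries. Of 6 leukocyte miRNAs, a class of cells rich in miR-181, 4 were tested, 0 were called and 4 had negative log2 fold changes, with a median of -0.97 beside 0.03 over all tested miRNAs. They were led by miR-342-3p, miR-142a-5p and miR-155-5p, and summed to 19.8 to 27.6 CPM in HFD and 26.1 to 82.5 CPM in NCD islets. The highest sum, that of NCD 3, was mostly miR-342-3p (71.5 CPM), whereas miR-142a-5p was lowest there (1.42 CPM, against 14.5 CPM in NCD 1). The 2 endothelial markers, miR-126a-3p and miR-126a-5p, had 0 calls and a median of -0.70, and summed to 299.8 to 434 and 346 to 748 CPM. Of 4 acinar markers, from the enzyme-secreting cells around the islets, 3 were tested and 0 called, with a median of -0.84. They, miR-216b-5p, miR-216a-3p and miR-217-5p, summed to 20.2, 138 and 204 CPM in HFD 1, 2 and 3, and to 109, 173 and 415 CPM in NCD 1, 2 and 3. The diets overlapped, with HFD 3 above NCD 1 and NCD 2, and miR-216a-3p had 0 reads in HFD 1. Their part in the levels of miR-181a-2-3p was not tested.

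The 7 islet endocrine miRNAs, led by miR-375-3p, miR-7a-5p and miR-7b-5p, had 0 calls and a median log2 fold change of 0.05, and their sum was lowest in NCD 3. Of 6 miRNAs of NF-kB control, the pathway that miR-181b-5p restrains in endothelium, 1 was called: miR-146a-5p, which dampens the same pathway, rose in HFD islets (log2 fold change 2.40 ± 0.34, SE, edgeR adjusted p = 0.00434). That call ended when library totals were the only scaling (adjusted p = 0.167), without NCD 1 (0.0855) and with limma-trend on the deposited TPM (0.0874 and 0.0913), and over its alternatives the adjusted p ran from 5.7e-08 to 0.167. The median of this list was 0.39, miR-21a-5p had a log2 fold change of 1.30 ± 0.32 (adjusted p = 0.204) and miR-10a-5p one of -0.09 ± 0.40 (adjusted p = 0.939). miR-181b-5p itself, at -0.05, did not pass.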

How the data were processed

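Small RNA libraries of islets were made with an NEBNext small RNA kit from total RNA isolated on RNeasy columns, per the labels' protocols. Such columns can lose short RNA. The authors deposited raw read counts for each mature miRNA, and TPM values that equal CPM on the library total (largest relative difference 4.61e-09). The aligner, counting rule, build and miRNA annotation are not stated in the sources used here.

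All 1011 rows, including 53 predicted miRNAs, entered edgeR 4.0.16 (R 4.3.3): filterByExpr (minimum count 10), TMM, estimateDisp, glmQLFit and glmQLFTest with diet as the only term, adjusted over 406 miRNAs. Standard errors are the absolute log2 fold change divided by the root of F. Read ratios used a prior count of 0.5 and exact permutation over samples. All 7 members are named, with the 5 miRNAs nearest in pattern and up to 3 per list by level. The members and lists were chosen with earlier results of these data known. Alternatives were other scalings, filters and tools (DESeq2 1.42.0, limma 3.58.1), summed near-identical rows, a replicate block and each library left out. A threshold of 0.1 on the adjusted p is counted with them, although it leaves every estimate as it was. Replicates of 1 diet differed beyond sampling noise (chi-square per degree of freedom 378 to 1894). On simulated counts for this comparison, with 393 miRNAs tested, 33.3% of 96 doubled or halved and 89.5% of 95 4-fold changed miRNAs were recovered. Among the 202 unchanged miRNAs 3 were called. The simulation thus held many changed miRNAs, which eases the adjusted threshold, while the data gave 1 call among 406. These rates may therefore be too high for the data.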

Additional observations from a re-analysis of the deposited data

How the results depend on the processing

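No member was called under any alternative run. The log2 fold changes of miR-181a-5p (20 alternatives), miR-181a-1-3p (17) and miR-181a-2-3p (18) stayed negative. These counts include the threshold of 0.1 on the adjusted p, which cannot change a sign. That of miR-181b-5p became 0.12 without HFD 3 and 0.12 when miR-181b-5p and miR-181d-5p were summed, and ran from -0.33 to 0.12 with 1 library left out. That of miR-181d-5p became -0.019 with library totals only. Of the ratios, the difference for miR-181d-5p to miR-181c-5p became 0.40 without NCD 1 and ran from -0.52 to 0.40 with 1 library left out, and the other 8 kept their direction. For the members under the filter, the log2 ratio of mean CPM ran from -0.05 to 0.94 for miR-181c-5p and from -0.57 to 0.08 for miR-181c-3p with 1 library left out, reversing without NCD 1 and HFD 1. Why they shifted was not tested.

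Over all miRNAs 1 call was made with the settings of the report. It was lost (0 calls) when only library totals were used and with limma-trend at pseudocounts of 1 and 0.1, whereas DESeq2 made 3 calls and dropping the filter gave 6. The count ran from 0 to 4 with 1 library left out (0 without NCD 1, 4 without NCD 2, 3 without NCD 3). Among the listed miRNAs the 1 call became 0 under library totals and limma-trend, 2 with DESeq2 and 0 to 1 with 1 library left out. Deviations of same-numbered libraries correlated at 0.18, -0.24 and 0.37. Differently numbered libraries were not correlated for comparison, so these values cannot decide whether same-numbered libraries are pairs. The main fit did not treat them as pairs. With the replicate block the log2 fold change of miR-181a-2-3p was -1.37 (edgeR adjusted p = 0.461), and the count over all miRNAs stayed at 1.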
